A study of Homo sapiens with 9 samples.

Results

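The interleukin-2 (IL-2) and interleukin-15 (IL-15) receptor genes and the genes of the CD28 costimulation system were followed across 9 orthotopic tumors of anaplastic thyroid carcinoma (ATC). The set was chosen by gene symbol as 10 genes: Il2ra, Il2rb, Il2rg, Il15, Il15ra, Foxp3, Cd28, Icos, Cd80 and Cd86. Of these, 8 had a row among the 17369 genes of the expression table, and Il2rg and Foxp3 were not analysed here. A further filter, at least 1 FPKM (fragments scaled to transcript length and to the mapped fragments of the tumor) in at least 3 tumors, left 6 of the 8 among the 10263 genes tested. Il2ra reached 1 FPKM in 2 tumors and Cd28 in 0, so both are described from their values.

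All tumors grew from TBP3743, a murine ATC line derived from mice with a thyroid-specific activating Braf mutation and thyroid-specific Trp53 deletion, and every group therefore carried both alterations. The original/B6129SF1 group held original TBP3743 cells in B6129SF1 hybrid hosts, the adapted/B6129SF1 group held adapted cells in the same hybrid hosts, and the adapted/C57BL/6 group held adapted cells in inbred C57BL/6 hosts, with 3 tumors labelled as biological replicates in each. The adapted cells were 1 line, recovered after 3 rounds of subcutaneous growth in C57BL/6 mice. Hosts were 6-week-old female mice that received 100000 cells in the left thyroid lobe, and whole tumors were collected on day 14. No group held original cells in C57BL/6 hosts, so adapted/C57BL/6 differed from original/B6129SF1 in both cells and host, and these cannot be told apart in that comparison. The sample records name the organism as human and the cells as epithelial, whereas the line, the hosts, the mm10 alignment and the gene symbols are mouse. Epithelial markers were uneven, with Krt8 at 153 to 615 FPKM and Epcam at 0.0949 to 2.49 FPKM, while the mesenchymal gene Vim stood at 2610 to 6060 FPKM.

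IL-2 and IL-15 are related cytokines that signal through the same receptor pair, the beta chain (Il2rb) and the common gamma chain (Il2rg), and then through JAK kinases and STAT5. Each has a private alpha chain: Il2ra raises the affinity for IL-2 and is abundant on regulatory T cells, which are defined by Foxp3, whereas Il15ra on myeloid and other cells holds IL-15 at the surface and presents it to neighbouring NK cells and CD8+ T cells. T cells also need a costimulatory signal, given when Cd80 or Cd86 on antigen-presenting cells binds CD28. ICOS is a CD28 relative that appears on T cells after activation.

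Il15ra and Icos were higher in adapted/C57BL/6 tumors than in original/B6129SF1 tumors, with Icos passing the filter through adapted tumors alone. Il15, the cytokine that the Il15ra product binds, was near 2 FPKM in all 3 groups. Il2rb had a large difference of its own that missed the threshold, and Cd80 and Cd86 did not pass it. In the limma test on log2(FPKM + 1), with Benjamini-Hochberg adjustment over all genes tested and a call at adjusted p under 0.05, adapted/C57BL/6 minus original/B6129SF1 gave 2 of 6 genes called higher, beside 3.99% of all genes called higher. Both also exceeded a log2 fold change of 1 (2 of 6, beside 3.09% of all genes in either direction). In adapted/B6129SF1 minus original/B6129SF1, 0 of 6 were called (all genes called higher, 4.37%), although 2 of 6, Il15ra and Il2rb, had an unadjusted p under 0.05, beside 26.5% of all genes. The mean of both adapted groups minus original/B6129SF1 gave 2 of 6 called, again Il15ra and Icos (all genes called higher, 6.06%). Only Il15ra passed the fold threshold there as well (1 of 6, beside 3.39% of all genes). Adapted/C57BL/6 minus adapted/B6129SF1 gave 0 of 6 called (0.0292% of all genes), with Icos and Cd86 at an unadjusted p under 0.05 (2 of 6, beside 6.27% of all genes). The comparisons with original/B6129SF1 share those 3 tumors.

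Icos entered the test only through adapted tumors, since all 5 tumors in which it reached 1 FPKM were adapted. Its calls, and the counts and medians over the 6 genes, are therefore descriptive. The median log2 fold change of the 6 was 0.33 in adapted/B6129SF1, 0.82 in adapted/C57BL/6 and 0.55 in both adapted groups together, each minus original/B6129SF1, where the medians over all genes tested were -0.0292, -0.0255 and -0.028. Non-overlap was counted where every tumor of one group stood above every tumor of the other. It held for 1 of 6 genes in adapted/B6129SF1 against original/B6129SF1 (Il15ra, beside 13.6% of all genes), for 4 of 6 in adapted/C57BL/6 against original/B6129SF1 (Il2rb, Il15ra, Icos and Cd86, beside 14.9%), and for 1 of 6 in adapted/C57BL/6 against adapted/B6129SF1 (Icos, beside 6.32%). For the 6 adapted against the 3 original tumors it held for Il15ra alone (1 of 6, beside 8.54%).

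Among the ligands, Il15 stood at 2.34, 2.54 and 2.11 FPKM in the original/B6129SF1 tumors. The adapted/B6129SF1 tumors gave 1.77, 2.16 and 2.87 FPKM, and the adapted/C57BL/6 tumors gave 1.63, 3.36 and 2.44 FPKM. The groups overlapped fully, and both the highest and the lowest tumor of all 9 were adapted/C57BL/6 tumors. The log2 difference from original/B6129SF1 was -0.04 in adapted/B6129SF1 (95% confidence interval -0.5 to 0.43, adjusted p = 0.926) and 0.03 in adapted/C57BL/6 (-0.43 to 0.5, adjusted p = 0.944, both limma with Benjamini-Hochberg adjustment). The other common gamma chain cytokines were near the floor of the table. Il2 was listed at 0 in 8 of 9 tumors with a highest value of 0.0422 FPKM, Il9 was listed at 0 in all 9, and Il4, Il7 and Il21 did not exceed 0.304, 0.152 and 0.0766 FPKM. These 5 cytokine genes were below the filter and were not tested.

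Il15ra, the alpha chain that binds and presents IL-15, was measured at 3.94, 2.45 and 3.46 FPKM in original/B6129SF1. In adapted/B6129SF1 it reached 5.14, 7.28 and 14.7 FPKM, and in adapted/C57BL/6 11.1, 7.02 and 11.1 FPKM. All 6 adapted tumors were above all 3 original tumors, and the adapted/C57BL/6 values lay within the wider adapted/B6129SF1 range. Group means were 3.28 ± 0.76, 9.05 ± 5.02 and 9.75 ± 2.36 FPKM (SD, n = 3 each), which put adapted/C57BL/6 at 2.97 times and adapted/B6129SF1 at 2.76 times original/B6129SF1. By limma with Benjamini-Hochberg adjustment the log2 fold change was 1.32 ± 0.33 (SE) in adapted/C57BL/6 (adjusted p = 0.0499) and 1.13 ± 0.33 in adapted/B6129SF1 (adjusted p = 0.0713). Over both adapted groups it was 1.22 ± 0.29 (adjusted p = 0.0282), and the exact two-sided permutation test of 6 against 3 tumors gave p = 0.0238, the smallest that this design allows.

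The Il15ra call depended on single tumors. In adapted/C57BL/6 minus original/B6129SF1, leaving out any 1 of the 6 tumors compared, or adapted/B6129SF1 replicate 2, took the adjusted p from limma to between 0.062 and 0.168 with log2 fold changes of 1.17 to 1.52. Over both adapted groups the call was lost without any 1 original/B6129SF1 tumor or without adapted/C57BL/6 replicate 1 or 3 (adjusted p = 0.0589 to 0.0903). The Il15ra maximum, adapted/B6129SF1 replicate 3, was also the tumor richest in skeletal muscle transcripts (8.06% of all FPKM). Adapted/C57BL/6 replicate 1 followed with 1.57%, and the other 7 tumors held 0.0296% to 0.204%. Without these 2 tumors the adapted/C57BL/6 difference in Il15ra from original/B6129SF1 was 1.22 (adjusted p = 0.0344). The adapted/B6129SF1 difference fell from 1.13 to 0.752 (adjusted p = 0.129). With the skeletal muscle level as a covariate it was 0.802 (adjusted p = 0.122, limma).

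Il2rb encodes the beta chain shared by the IL-2 and IL-15 receptors. It was 3.0, 1.02 and 2.79 FPKM in original/B6129SF1, then 2.49, 7.29 and 7.12 FPKM in adapted/B6129SF1, and 9.2, 5.34 and 7.74 FPKM in adapted/C57BL/6. All adapted/C57BL/6 tumors were above all original tumors, while adapted/B6129SF1 replicate 1 lay within the original range. The log2 differences from original/B6129SF1 were 0.98 ± 0.39 in adapted/B6129SF1 (adjusted p = 0.152), 1.40 ± 0.39 in adapted/C57BL/6 (adjusted p = 0.0643) and 1.19 ± 0.34 over both (adjusted p = 0.0529, limma). None of the 3 passed the threshold, and the 95% confidence interval for adapted/C57BL/6 was 0.52 to 2.28.

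The Il2rb call depended on which tumors entered the fit. With only the 6 tumors of adapted/C57BL/6 and original/B6129SF1 in the model, the log2 fold change of 1.40 had an adjusted p of 0.0368 (limma). Without adapted/B6129SF1 replicate 1, the tumor that sat among the originals, Il2rb passed in all 3 comparisons with original/B6129SF1. The log2 fold changes were then 1.39 in adapted/B6129SF1 (adjusted p = 0.0445), 1.40 in adapted/C57BL/6 (adjusted p = 0.0268) and 1.40 over both (adjusted p = 0.0151, limma). In the same fit Il15ra and Icos also passed in adapted/B6129SF1 minus original/B6129SF1, at 1.43 (adjusted p = 0.0383) and 0.769 (adjusted p = 0.0455). That tumor was left out only to measure its weight, and the values with all 9 tumors stand as the main ones.

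Il2ra, the alpha chain of the high-affinity IL-2 receptor, was 0.757, 0.265 and 0.919 FPKM in original/B6129SF1, 0.401, 0.61 and 0.811 FPKM in adapted/B6129SF1 and 1.15, 0.843 and 1.11 FPKM in adapted/C57BL/6. Adapted/C57BL/6 lay above adapted/B6129SF1 without overlap but shared its range with original/B6129SF1. The adapted/C57BL/6 mean was 1.70 times the adapted/B6129SF1 mean, with an exact two-sided permutation p = 0.1, the smallest that 3 against 3 tumors can give. Against original/B6129SF1 the exact permutation p was 1.0 for adapted/B6129SF1 and 0.2 for adapted/C57BL/6. Entered into limma without the filter on low values, Il2ra had an adjusted p of 0.851 for adapted/C57BL/6 minus adapted/B6129SF1.

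**Figure D1:**
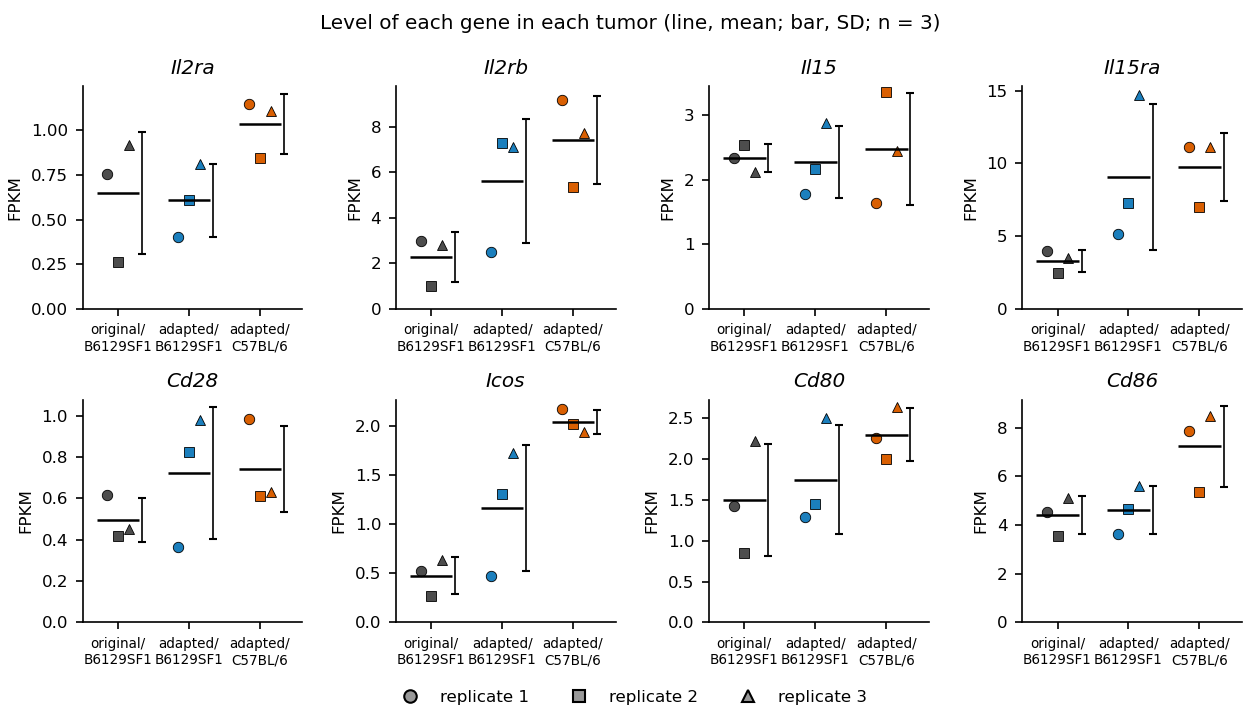
Level in FPKM (vertical axes, each from 0 on its own scale) of the 8 measured genes in the 3 tumors of each group (horizontal axes), where circles, squares and triangles are replicates 1, 2 and 3, lines are means and bars are SD. Il15ra is above all 3 original/B6129SF1 tumors in all 6 adapted tumors, Icos is near 2 FPKM in the 3 adapted/C57BL/6 tumors, and Il15 overlaps in all groups.

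Icos, the inducible costimulator, had 0.526, 0.264 and 0.636 FPKM in the original/B6129SF1 tumors. Adapted/B6129SF1 tumors gave 0.466, 1.3 and 1.72 FPKM, and adapted/C57BL/6 tumors gave 2.17, 2.02 and 1.93 FPKM. The adapted/C57BL/6 values were close together and above all 6 other tumors, while adapted/B6129SF1 spread from the original range upwards. Means of 0.476 ± 0.191, 1.16 ± 0.637 and 2.04 ± 0.123 FPKM (SD, n = 3) placed adapted/C57BL/6 4.28-fold above original/B6129SF1 on the FPKM scale. On the log2(FPKM + 1) scale, which compresses low values, the fold change was 1.05 ± 0.23 (adjusted p = 0.0334), against 0.51 ± 0.23 in adapted/B6129SF1 (adjusted p = 0.201, limma). The call is descriptive, since Icos passed the filter only through adapted tumors. The direct difference between the adapted groups was 0.54 (95% confidence interval 0.01 to 1.07, adjusted p = 0.789), which did not pass the threshold.

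As with Il15ra, the Icos call in adapted/C57BL/6 minus original/B6129SF1 was lost when any 1 of the 6 tumors compared was left out, with adjusted p from 0.0783 to 0.11 in limma and log2 fold changes from 0.942 to 1.13. Without the 2 tumors rich in skeletal muscle it was 1.02 (adjusted p = 0.0577). Over both adapted groups Icos was 0.78 ± 0.2 (adjusted p = 0.0399), with the exact permutation p at 0.0714 because adapted/B6129SF1 replicate 1 fell among the original tumors. It was lost without any 1 original/B6129SF1 or adapted/C57BL/6 tumor (adjusted p = 0.0677 to 0.112, limma), and without replicate 2 or 3 of adapted/B6129SF1 it was 0.747 (adjusted p = 0.0723) or 0.686 (adjusted p = 0.0506).

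Cd28, the constitutive costimulatory receptor of T cells, was below 1 FPKM in every tumor. The values were 0.614, 0.417 and 0.452 FPKM in original/B6129SF1, 0.364, 0.826 and 0.98 FPKM in adapted/B6129SF1 and 0.983, 0.609 and 0.632 FPKM in adapted/C57BL/6. All 3 groups overlapped, and the lowest tumor of all was adapted/B6129SF1 replicate 1. The ratio of means to original/B6129SF1 was 1.46 in adapted/B6129SF1 and 1.50 in adapted/C57BL/6, with exact permutation p of 0.4 and 0.2.

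Cd80, a CD28 ligand that antigen-presenting cells raise on activation, was 1.43, 0.852 and 2.22 FPKM in original/B6129SF1, 1.29, 1.45 and 2.51 FPKM in adapted/B6129SF1, and 2.26, 2.0 and 2.64 FPKM in adapted/C57BL/6, so that all groups overlapped. Its log2 difference from original/B6129SF1 was 0.15 (95% confidence interval -0.39 to 0.69, adjusted p = 0.722) in adapted/B6129SF1 and 0.43 (-0.11 to 0.97, adjusted p = 0.305, limma) in adapted/C57BL/6.

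Cd86, the ligand that resting antigen-presenting cells already carry, was the more abundant of the pair in every tumor on the FPKM scale. It was 4.55, 3.57 and 5.13 FPKM in original/B6129SF1, 3.63, 4.67 and 5.59 FPKM in adapted/B6129SF1 and 7.86, 5.36 and 8.5 FPKM in adapted/C57BL/6. Adapted/C57BL/6 was above original/B6129SF1 without overlap, and 1 adapted/B6129SF1 tumor exceeded the lowest adapted/C57BL/6 tumor. The log2 difference was 0.60 ± 0.2 in adapted/C57BL/6 minus original/B6129SF1 (adjusted p = 0.109) and 0.54 in adapted/C57BL/6 minus adapted/B6129SF1 (95% confidence interval 0.09 to 0.99, unadjusted p = 0.0233, adjusted p = 0.746, limma). In adapted/B6129SF1 minus original/B6129SF1 it was 0.05 (-0.4 to 0.5, adjusted p = 0.893).

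**Figure D2:**
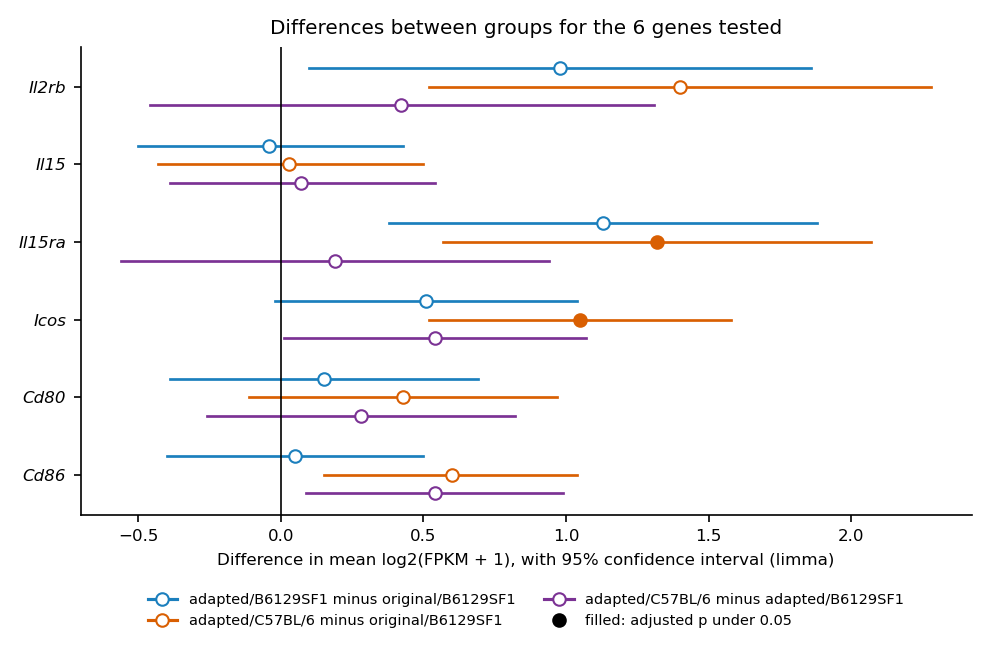
Difference in mean log2(FPKM + 1) between groups (horizontal axis) for the 6 genes tested (vertical axis), with lines for 95% confidence intervals from limma, 1 color per comparison and filled points for adjusted p under 0.05. The filled points are Il15ra (1.32) and Icos (1.05) in adapted/C57BL/6 minus original/B6129SF1, and the 3 intervals of Il15 and of Cd80 all include 0.

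Ratios between partners within a tumor do not depend on the total to which that tumor was scaled, and FPKM is corrected for transcript length, so they were computed as descriptions without a test. Il15ra to Il15 was 1.69, 0.965 and 1.64 in original/B6129SF1, 2.9, 3.37 and 5.13 in adapted/B6129SF1 and 6.83, 2.09 and 4.56 in adapted/C57BL/6. Every adapted tumor was above every original tumor in this receptor-to-ligand ratio. Il2rb to Il2ra was 3.97, 3.83 and 3.04 in original/B6129SF1, 6.19, 11.9 and 8.78 in adapted/B6129SF1 and 8.02, 6.34 and 6.99 in adapted/C57BL/6, which also separated adapted from original tumors. In adapted/B6129SF1 replicate 1, whose Il2rb level was within the original range, this ratio was nevertheless above all original tumors, over an Il2ra value of 0.401 FPKM. Il2ra and Cd28 were below the filter, so the ratios that hold either gene rest on low values.

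Icos to Cd28 was 0.857, 0.635 and 1.41 in original/B6129SF1, 1.28, 1.57 and 1.75 in adapted/B6129SF1 and 2.21, 3.31 and 3.05 in adapted/C57BL/6. The adapted/C57BL/6 tumors were above all others, and original/B6129SF1 and adapted/B6129SF1 overlapped. Cd80 to Cd86 was 0.239 to 0.432 in original/B6129SF1, 0.31 to 0.448 in adapted/B6129SF1 and 0.287 to 0.372 in adapted/C57BL/6, overlapping in all groups.

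Set against the T cell receptor complex (summed FPKM of Cd3d, Cd3e and Cd3g), the receptor genes behaved unequally. The Cd3 sum itself was 2.5, 1.79 and 2.39 FPKM in original/B6129SF1, 3.31, 15.7 and 12.5 FPKM in adapted/B6129SF1 and 14.8, 9.68 and 13.2 FPKM in adapted/C57BL/6, without overlap between adapted and original tumors. Cd28 per Cd3 sum was 0.245, 0.233 and 0.189 in original/B6129SF1, 0.11, 0.0525 and 0.0783 in adapted/B6129SF1 and 0.0664, 0.0629 and 0.0479 in adapted/C57BL/6. All adapted tumors were below all original tumors in this ratio, which is opposite to the order of the Cd28 group means. Il2rb per Cd3 sum ranged from 0.568 to 1.2 in original/B6129SF1, from 0.463 to 0.751 in adapted/B6129SF1 and from 0.552 to 0.622 in adapted/C57BL/6, and Icos per Cd3 sum from 0.148 to 0.266, from 0.0826 to 0.141 and from 0.146 to 0.208. The Il2rb ratios overlapped in all groups. Those of Icos overlapped between adapted/C57BL/6 and original/B6129SF1, and in adapted/B6129SF1 they lay below both without overlap. In whole tumors, more cells of a type and more RNA per cell cannot be told apart.

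**Figure D3:**
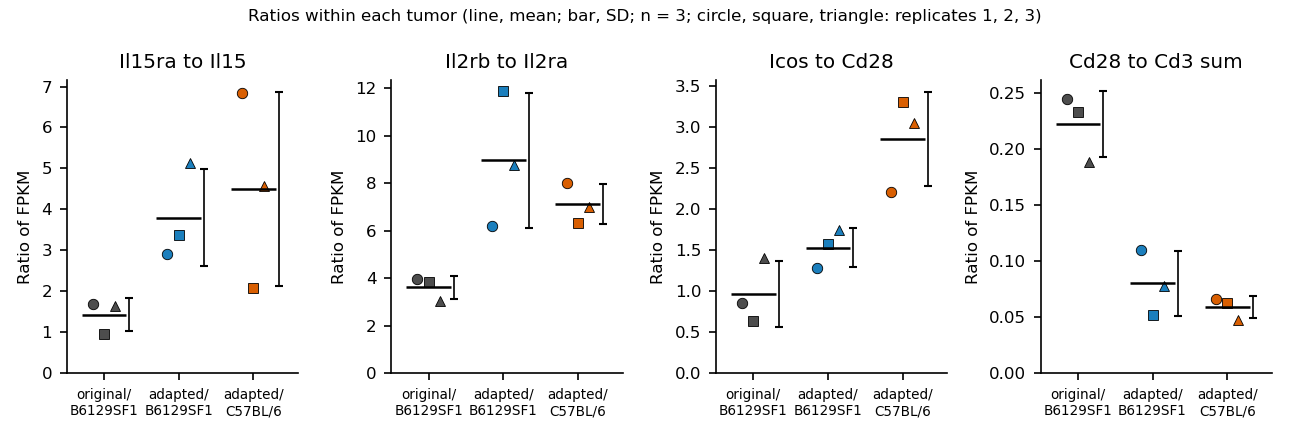
Ratio of FPKM values within each tumor (vertical axes, from 0) for 4 gene pairs by group (horizontal axes), with circles, squares and triangles for replicates 1, 2 and 3, lines for means and bars for SD (n = 3). Il15ra to Il15 and Il2rb to Il2ra are higher, and Cd28 to the Cd3 sum lower, in all 6 adapted tumors than in all 3 original/B6129SF1 tumors, while Icos to Cd28 is highest in adapted/C57BL/6 (2.21 to 3.31).

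The same few tumors took the extremes of most genes. Original/B6129SF1 replicate 2 was lowest for 6 of the 8 genes (Il2ra, Il2rb, Il15ra, Icos, Cd80 and Cd86). Adapted/C57BL/6 replicate 1 was highest for 4 (Il2ra, Il2rb, Cd28 and Icos) and lowest for Il15, and adapted/C57BL/6 replicate 3 was highest for Cd80 and Cd86. Across the 9 tumors, as a description over points that share group, host and library scaling, Pearson's r of log2(FPKM + 1) was 0.93 for Il2rb with Icos, 0.91 for Il2rb with Il15ra, 0.85 for Cd80 with Cd86 and 0.91 for Il2ra with both Cd80 and Cd86. Il15 stood apart, with r from -0.05 to 0.21 to the other 7 genes.

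The genes tested that followed each member most closely over the 9 tumors were ranked by Pearson's r, with no p attached. For Il15ra these were Slco3a1 (r = 0.994), Tnni3 (0.984) and the T cell receptor zeta chain Cd247 (0.976, Spearman's rho 1.0). Il2rb was followed by Sh2d2a (0.978), Pycr1 (0.977) and Bcl2a1d (0.969), and Icos by Pycr1 (0.966), Cd27 (0.965) and Zbtb32 (0.963). For Cd86 they were Raet1d (0.987), St7 (0.962) and Nampt (0.933), for Cd80 Ube2m (0.94), Cytip (0.93) and Fam169b (0.924), and for Il15 Nuak1 (0.891), Copz1 (0.871) and Pfdn1 (0.859). Pycr1 was among the 3 nearest genes of both Il2rb and Icos.

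The other receptors that use the common gamma chain had no call. Of 5 receptor genes tested, Il15ra and Il2rb included, Il15ra was the only one called in adapted/C57BL/6 minus original/B6129SF1, beside 3.99% of all genes called higher. Il4ra was the most abundant, at 48.2 to 109 FPKM, with log2 differences from original/B6129SF1 of -0.42 in adapted/B6129SF1 and -0.27 in adapted/C57BL/6 (adjusted p = 0.303 and 0.543). Il7r, the IL-7 receptor of resting T cells, was at 0.46 and 0.48 (adjusted p = 0.258 and 0.267), and Il21r at 0.18 and 0.51 (adjusted p = 0.606 and 0.18, limma).

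Downstream of the receptors, 1 of 9 signal transduction genes was called in adapted/B6129SF1 minus original/B6129SF1, 0 in adapted/C57BL/6 minus original/B6129SF1 and 2 over both adapted groups. The shares of all genes called higher were 4.37%, 3.99% and 6.06%. Pik3cd, the leukocyte PI3-kinase catalytic subunit, rose by 0.83 ± 0.18 in adapted/B6129SF1 (adjusted p = 0.0293), and Lck, the T cell kinase that also associates with the IL-2 receptor beta chain, rose by 1.16 ± 0.32 over both adapted groups (adjusted p = 0.049, limma). Stat5a and Stat5b, which carry the signal to the nucleus, were at 0.26 and -0.09 in adapted/C57BL/6 minus original/B6129SF1 (adjusted p = 0.278 and 0.658). Among 9 STAT5 target and feedback genes, the survival gene Bcl2 was the only call in adapted/C57BL/6 minus original/B6129SF1, at 0.49 ± 0.1 (adjusted p = 0.0296), while Cish and Socs1, feedback inhibitors of cytokine receptors, were at 0.24 and 0.13 (adjusted p = 0.55 and 0.591). Pim1 had the largest difference of the 9 there, at 0.78 ± 0.23 (adjusted p = 0.0813, limma), and was not called. Its means were 30.4 FPKM in original/B6129SF1 and 54.3 FPKM in adapted/C57BL/6. Of the 9, 5 had a positive difference in that comparison, beside 46.1% of all genes, and the median log2 fold change was 0.02.

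In the wider B7 and CD28 family, all 8 genes tested had a positive difference from original/B6129SF1 in both adapted groups. Over all genes the share with a positive difference was 45.7% in adapted/B6129SF1 and 46.1% in adapted/C57BL/6. Of the 8, 2 (Icos and Cd274) were called in adapted/C57BL/6, beside 3.99% of all genes called higher. Icos passed the filter only through adapted tumors, so its call is descriptive. In adapted/B6129SF1 the signs of Cd80 and Cd86 turned negative (-0.00119 and -0.0876) with the skeletal muscle level as a covariate. Cd274 encodes the inhibitory ligand PD-L1, and rose by 1.63 ± 0.2 (adjusted p = 0.0036), from 4.91 ± 1.31 to 17.3 ± 4.42 FPKM (SD, n = 3, limma). Ctla4, which competes with CD28 for Cd80 and Cd86, was at 0.94 (adjusted p = 0.105), and Icosl, the ligand of ICOS, at 0.46 (adjusted p = 0.348). The ligand Icosl therefore did not pass, and the call of its receptor is descriptive. The family's medians were 0.52 in adapted/B6129SF1 and 0.76 in adapted/C57BL/6.

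The TNF family supplies further costimulatory receptors, some of them, such as OX40 and 4-1BB, found on activated T cells. Of 8 genes tested, 1 was called higher in adapted/B6129SF1 and 5 in adapted/C57BL/6, relative to original/B6129SF1 (beside 4.37% and 3.99% of all genes). In adapted/C57BL/6 the 5 were Tnfrsf14, the receptor HVEM (1.39, adjusted p = 0.00976), Tnfrsf9 or 4-1BB (1.26, adjusted p = 0.0113), Tnfrsf18 or GITR (1.03, adjusted p = 0.0166), Tnfrsf4 or OX40 (0.94, adjusted p = 0.0106) and Cd27 (0.90, adjusted p = 0.0471). Tnfrsf9 was 5.03 to 6.38 FPKM in original/B6129SF1, where the Cd3 sum was 1.79 to 2.5 FPKM. The cells that carried it were not tested. Cd27 entered the test only through adapted tumors, since it was at most 0.343 FPKM in original/B6129SF1. Tnfrsf14 was also the one called in adapted/B6129SF1 (1.40, adjusted p = 0.0109, limma). The ligand genes tested were at 0.12 (Tnfsf9) and 0.01 (Tnfsf14) in adapted/C57BL/6 minus original/B6129SF1, and neither was called. Adapted/C57BL/6 minus adapted/B6129SF1 gave 0 calls in this family and 0 in the B7 and CD28 family.

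**Figure D4:**
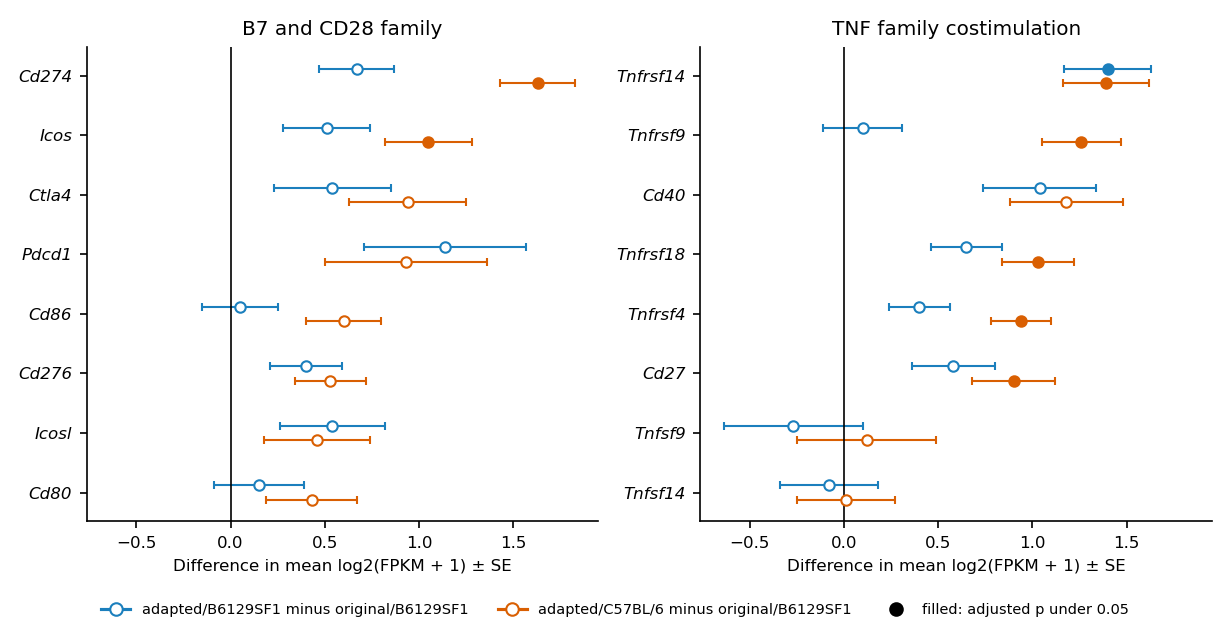
Difference in mean log2(FPKM + 1) from original/B6129SF1 (horizontal axes, bars are SE) for the tested genes of the B7 and CD28 family and of TNF family costimulation (vertical axes), in adapted/B6129SF1 and adapted/C57BL/6, with filled points for adjusted p under 0.05. In adapted/C57BL/6 the filled points are Cd274 and Icos on one side and the receptors Tnfrsf14, Tnfrsf9, Tnfrsf18, Tnfrsf4 and Cd27 on the other, while the ligands Tnfsf9 and Tnfsf14 lie near 0.

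Genes that mark the cells able to carry these receptors moved with the results, and their part was not tested. All 13 T cell markers had a row with none at 0, and their summed level was 51.7 to 80.1 FPKM in original/B6129SF1, 119 to 128 in adapted/B6129SF1 and 188 to 214 in adapted/C57BL/6. Thy1, which tumor stroma can also express, made up most of that sum (43.0 to 185 FPKM). Cd3g, a chain of the T cell receptor complex, rose by 1.50 in adapted/B6129SF1 and 1.95 in adapted/C57BL/6 relative to original/B6129SF1 (adjusted p = 0.0393 and 0.017, limma). Of 12 T cell markers tested, 1 was called higher in adapted/B6129SF1, 3 in adapted/C57BL/6 and 5 over both (beside 4.37%, 3.99% and 6.06% of all genes). These counts are descriptive, since 7 of the 12 (Cd3d, Cd3e, Cd247, Cd5, Cd6, Cd4 and Cd8b1) reached 1 FPKM in adapted tumors alone.

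NK cell marker sums (11 genes) were 9.13 to 23.9, 21.9 to 46.1 and 56.7 to 85 FPKM in original/B6129SF1, adapted/B6129SF1 and adapted/C57BL/6. Gzmb was the largest single part of the mean sum in each group (7.16 of 18.1, 10.6 of 36.1 and 39.9 of 73.7 FPKM). Klre1, below the filter, went the other way (means 0.422, 0.393 and 0.317 FPKM). The other NK cell markers below the filter had higher means in both adapted groups. In the same group order these were 0.238, 0.475 and 0.423 FPKM for Ncr1 and 0.203, 0.33 and 0.55 FPKM for Klrb1c. Klra8 had means of 0.0283, 0.256 and 0.297 FPKM, and Eomes of 0.168, 0.263 and 0.331 FPKM. Prf1 was at 0.07 in adapted/B6129SF1 minus original/B6129SF1 (adjusted p = 0.936, limma). The calls among the 6 tested were 1 in adapted/B6129SF1 (Nkg7) and 3 in adapted/C57BL/6 (Nkg7, Gzma and Gzmb), which are cytotoxic genes shared with CD8+ T cells. The shares of all genes called higher were 4.37% and 3.99%. The receptor genes that define NK cells, Ncr1 and Klrb1c, were at most 0.609 and 0.597 FPKM, and Klra8 was listed at 0 in at least 1 tumor. Of the regulatory T cell list, 6 of the 12 genes with a row were tested. Tnfrsf18 and Entpd1 rose in adapted/C57BL/6 (1.03 and 0.85, adjusted p = 0.0166 and 0.0462, beside 3.99% of all genes called higher). Nt5e fell by 1.10 in adapted/B6129SF1 (adjusted p = 0.041, limma). Entpd1 (15.2 to 41.5 FPKM) and Nt5e (12.4 to 45.6 FPKM) stood far above Cd3e (0.346 to 3.29 FPKM), and the cells that carried them were not tested. Ikzf2, a transcription factor of regulatory T cells, was at 0.453 to 1.04 FPKM and below the filter. Its means were 0.839, 0.658 and 0.625 FPKM in original/B6129SF1, adapted/B6129SF1 and adapted/C57BL/6, highest in original/B6129SF1. Other genes of the list below the filter differed in direction. In the same group order, Ccr8 went the other way (0.16, 0.457 and 0.608 FPKM). Ikzf4 (0.339, 0.379 and 0.353 FPKM) and Itgae (0.244, 0.212 and 0.216 FPKM) moved little. B cell markers were almost absent, with a summed level of 0.201 to 1.52 FPKM over 6 genes and Ms4a1, Pax5 and Blk listed at 0 in at least 1 tumor.

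For the cells that present IL-15 and carry Cd80 and Cd86, macrophage and monocyte markers summed to 1310 to 1820 FPKM in original/B6129SF1, 1930 to 2450 in adapted/B6129SF1 and 1150 to 2540 in adapted/C57BL/6, over 10 genes of which none was at 0. The adapted/B6129SF1 sums were thus all above those of original/B6129SF1, and the adapted/C57BL/6 sums extended below and above them. C1qa, C1qb and C1qc made up most of the sum (means 449, 345 and 400 of 1610 FPKM in original/B6129SF1). A positive difference from original/B6129SF1 was seen for 9 of 10 genes in adapted/B6129SF1 and 8 in adapted/C57BL/6 (all genes, 45.7% and 46.1%). Mrc1 went the other way, at -0.69 and -0.49 (adjusted p = 0.354 and 0.553, limma). Of these 10, Ccr2 was the only call in adapted/B6129SF1 and Fcgr1 the only call in adapted/C57BL/6 (beside 4.37% and 3.99% of all genes called higher). Of 7 dendritic cell markers tested, 6 had a positive difference from original/B6129SF1 in each adapted group, and Fscn1 had a negative one. The shares of all genes with a positive difference were 45.7% in adapted/B6129SF1 and 46.1% in adapted/C57BL/6. Clec9a, of the cross-presenting subset, rose by 1.96 in adapted/B6129SF1 and 1.89 in adapted/C57BL/6 (adjusted p = 0.00512 and 0.00449), and Batf3 of the same subset rose by 0.92 in adapted/C57BL/6 (adjusted p = 0.0471, limma). Both entered the test only through adapted tumors, with original/B6129SF1 values of at most 0.416 and 0.29 FPKM. Fscn1 was called lower in adapted/B6129SF1 (-0.49, adjusted p = 0.0326) and over both adapted groups (-0.44, adjusted p = 0.0227), and was at -0.39 in adapted/C57BL/6 (adjusted p = 0.0702, limma). Its level was 79.0 to 133 FPKM, far above Itgax (1.58 to 6.84 FPKM), and the cells that carried it were not tested. The sum of the list, which Fscn1 dominated, was 114 to 137, 96.4 to 101 and 96 to 114 FPKM in original/B6129SF1, adapted/B6129SF1 and adapted/C57BL/6.

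Il15ra, Cd274 and Il15 are known targets of interferon signalling, so a list of 12 interferon-gamma response genes was read beside them. Its summed level was 212 to 332 FPKM in original/B6129SF1, 502 to 926 in adapted/B6129SF1 and 974 to 1580 in adapted/C57BL/6. Relative to original/B6129SF1, 9 of 12 genes were called higher in adapted/B6129SF1 and 10 of 12 in adapted/C57BL/6 (beside 4.37% and 3.99% of all genes). Il15, with log2 differences of -0.04 and 0.03 in the same comparisons, was not called, and neither was Socs1 of the list (-0.12 and 0.13). The part of interferon signalling in these differences was not tested.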

How the data were processed

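RNA of whole tumors was sequenced as paired-end reads on a HiSeq2000 from TrueSeq libraries. Per the labels and the methods, the authors used FastQC, HISAT2 with mm10, Cuffdiff on raw counts for their own comparisons, and Cuffnorm for normalization. The deposited values are FPKM per gene from Cuffnorm, and the annotation and Cuffnorm's settings are not given in the sources used here. Read counts were not used, so the depth behind each value is unknown. FPKM totals were 457983 to 540514 and 9799 to 10414 genes reached 1 FPKM per tumor. Groups came from the sample titles. Tumors were fitted with limma 3.58.1 in R 4.3.3 on log2(FPKM + 1), as 1 model of 3 groups with a mean-variance trend, over the 10263 genes that reached 1 FPKM in 3 or more tumors, and p-values were Benjamini-Hochberg adjusted over all of them. Fold changes on this scale understate those of low genes. Genes below the filter were compared by exact two-sided permutation tests. P-values measure the spread between 3 tumors per group.

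The fit was tested on simulated data made for adapted/B6129SF1 minus original/B6129SF1 over 10263 genes: 144 of 200 genes changed by log2 1 and 191 of 200 changed by log2 2 were recovered, with 7 false calls in each. The changed genes were drawn from all genes tested, and the noise was normal and independent between genes. Recovery for the members was therefore not measured. The genes, lists and ratios were chosen with earlier results of these data known. Named genes were all members, genes of the lists and the 3 genes nearest to each tested member. Alternatives covered the pseudocount (0.1), filters, scaling, samples, the replicate block, muscle, the variance trend, the call rule and leaving out each tumor. Same-numbered tumors came from different animals, and the correlations of their deviations ran from -0.39 to 0.61, so they were not treated as pairs. Sequences and coordinates of these mouse genes were not used here.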

Additional observations from a re-analysis of the deposited data

How the results depend on the processing

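Absolute depth was unknown, the members lay at 0.265 to 14.7 FPKM and each group held 3 tumors, so small differences were not detectable. Of 458 values of single members under an alternative, 390 kept direction and side of the threshold, 38 lost a call, 6 gained one and 24 changed sign, all 24 without a call. The 390 overstate stability, because some settings cannot move a fold change. Among these are other filters, the variance trend and leaving out a tumor of a group not compared. The 390 also hold values of Il2ra and Cd28, which were not tested in the main fit. The number of members called in adapted/C57BL/6 minus original/B6129SF1 (2 with all tumors) was 1 without the filter, with a mean of at least 1 FPKM, with median-of-ratios scaling, when rescaled without muscle genes and without the tumors above 1% muscle, it was 3 (Il2rb added) with only the groups compared, and it was 0 with the replicate block, in which the shared number is no pairing. Over both adapted groups (2) it was 1 with the fold threshold added, without the filter, with a mean of at least 1 FPKM, with the replicate block, with the muscle covariate and without the tumors above 1% muscle. Leaving out 1 tumor gave 0 to 3 calls in adapted/B6129SF1 minus original/B6129SF1, 0 to 3 in adapted/C57BL/6 minus original/B6129SF1 and 0 to 3 over both, and 0 throughout in adapted/C57BL/6 minus adapted/B6129SF1. The replicate block changed the calls of no other comparison. Sign changes with muscle as a covariate were Il15 0.0185, Cd80 -0.00119 and Cd86 -0.0876 in adapted/B6129SF1 minus original/B6129SF1, and Il15 0.0425 over both. Without the tumors above 1% muscle they were Cd80 -0.0398, Cd86 -0.0688 and, over both, Il15 0.026, and for Il15 over both also 0.012 with median-of-ratios scaling and 0.0159 when rescaled. Leaving out 1 tumor moved Il15 from -0.167 to 0.0726, Cd80 from -0.0491 to 0.349 and Cd86 from -0.0688 to 0.186 in adapted/B6129SF1 minus original/B6129SF1. It moved Il15 from -0.146 to 0.219 in adapted/C57BL/6 minus original/B6129SF1, from -0.107 to 0.259 in adapted/C57BL/6 minus adapted/B6129SF1 and from -0.0926 to 0.0901 over both, and Il15ra from -0.112 to 0.566 in adapted/C57BL/6 minus adapted/B6129SF1. The cause was not tested.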
